A study of Mus musculus with 24 samples.

Results

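The regional identity of hippocampus and hypothalamus was compared at the level of mRNA in mice aged 2 months. The comparison takes every library whose labels give mRNA sequencing, an age of 2 months and either region as the tissue. It holds 6 of the 24 libraries of the series, 3 from hippocampus and 3 from hypothalamus. The study sequenced mRNA and small RNA from both regions of young mice, aged 2 months, and of mice aged 15 months, with 3 mice per age. All mice were males of the inbred C57BL/6J strain, and the labels give no treatment and no engineered allele. Sample titles number the young mice 1 to 3 in both regions, and each library is named here by its region and that number. RNA came from pieces of dissected tissue, so a level is an average over every cell type in the piece.

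The hippocampus develops from the dorsal telencephalon, and most of its neurons are glutamatergic: granule cells of the dentate gyrus and pyramidal cells of the fields CA3, CA2 and CA1, whose synapses are a main model of learning. The hypothalamus is a mosaic of small nuclei at the base of the forebrain whose neurons make peptides that govern the pituitary, feeding, water balance, sleep and reproduction. Each region keeps into adulthood part of the set of transcription factors that patterned it in the embryo.

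Each library held between 24902188 and 25943252 expected counts, which are estimates of the number of fragments per gene. Between 16691 and 16874 genes were listed per library, and 17979 genes in at least 1 of the 6. The Pearson correlation of log2(count + 1) across genes, whose values depend on each other, was 0.987 to 0.990 between hippocampal libraries, 0.990 to 0.991 between hypothalamic libraries and 0.969 to 0.976 between regions. Levels are given below as FPKM, fragments per kilobase of transcript scaled to the mapped fragments of the library, so that genes of different length can be set side by side. Wherever values of single libraries follow a gene, they stand in the order of libraries 1, 2 and 3 of each region. Fold changes are log2 values from the count model with their standard errors, for 3 against 3 libraries, and a positive value means a higher level in hippocampus.

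Both tissue labels were checked against genes known to mark the regions. All 14 hypothalamic markers that could be tested were higher in hypothalamus (all genes 8.21%), with a median log2 fold change of -4.39. Only Rax had too few counts for a test. Of 15 hippocampal markers, 11 were higher in hippocampus, 3 were not called and 1, Amigo2, was higher in hypothalamus. Over all genes tested, 9.97% were called higher in hippocampus and 8.21% in hypothalamus. The median of the hippocampal markers was 1.38. Oxt, the oxytocin precursor, was at 118, 147 and 135 FPKM in hypothalamus and 4.99, 1.54 and 0.75 FPKM in hippocampus, and Slc17a7, the vesicular glutamate transporter of cortical and hippocampal pyramidal cells, was at 442, 479 and 450.3 FPKM in hippocampus and 54.4, 39.6 and 40.96 FPKM in hypothalamus. Neither gene overlapped between the regions. Prox1, the homeobox factor of dentate granule cells, was at 9.12, 4.82 and 3.73 FPKM in hippocampus and 7.18, 5.57 and 7.43 FPKM in hypothalamus, and these groups overlapped.

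Libraries of the same region differed in the markers of neighbouring tissue. Drd1, the dopamine receptor of striatal projection neurons, was at 4.48, 9.86 and 15.5 FPKM in hippocampus and 1.15, 1.71 and 3.26 FPKM in hypothalamus. Ppp1r1b, a phosphatase inhibitor abundant in the same neurons, was at 151, 275 and 392 FPKM in hippocampus and 31.03, 33.8 and 44.8 FPKM in hypothalamus. Hippocampal library 3 was highest and hippocampal library 1 lowest for both genes. Lamp5, a membrane protein of cortical neurons, followed the same order at 28.1, 64.9 and 84.9 FPKM in hippocampus and 7.77, 8.92 and 9.81 FPKM in hypothalamus. Spink8, a marker of CA1 pyramidal cells, ran the other way at 11.4, 8.03 and 3.69 FPKM in hippocampus and 0.06, 0.31 and 0.77 FPKM in hypothalamus. Hippocampal library 1 was also the closest to the hypothalamic libraries across genes, with correlations of 0.974 to 0.976, against 0.969 to 0.971 for library 3. Among the hypothalamic libraries, library 2 stood apart in choroid plexus genes: Ttr, the thyroid hormone carrier made by that epithelium, was at 1854, 2096 and 1359 FPKM in hippocampus and 494, 19.8 and 416 FPKM in hypothalamus. The part of these differences in the regional contrast was not tested, beyond leaving out each library singly and hippocampal library 3 together with hypothalamic library 2.

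**Figure D1:**
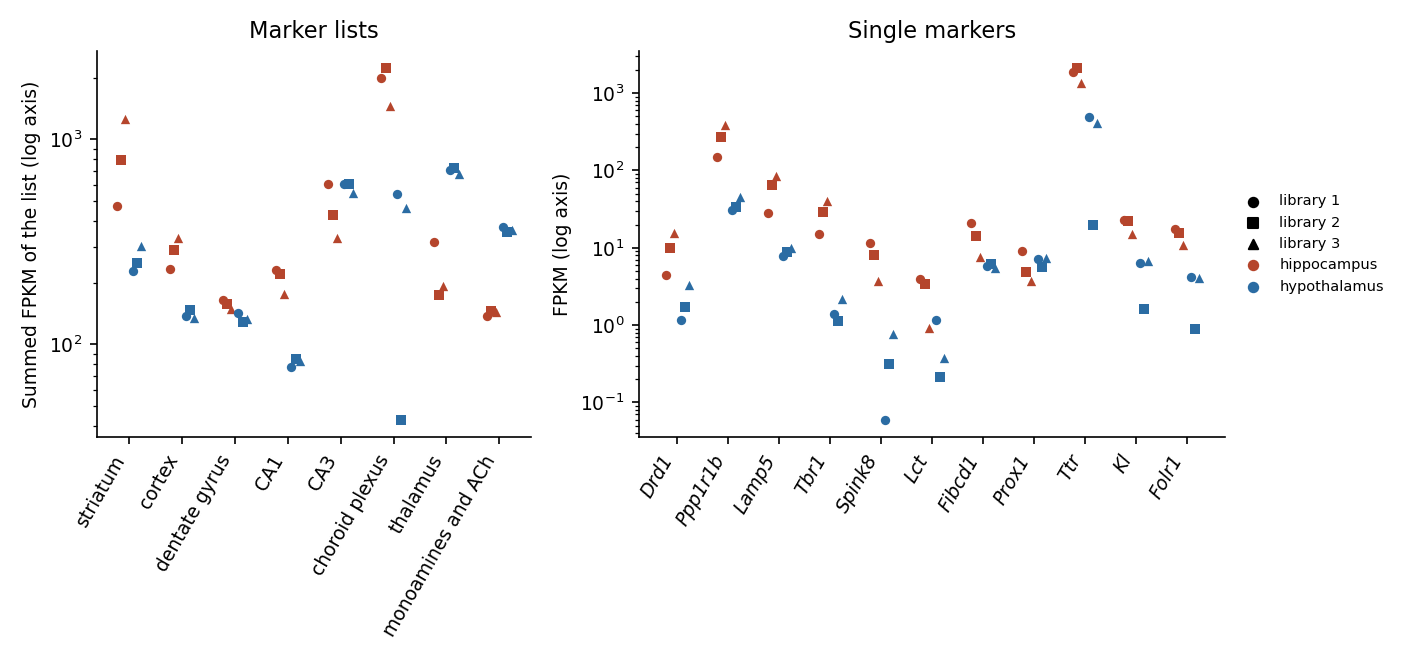
Left, summed FPKM (log axis) of the marker lists of neighbouring tissues and hippocampal fields in each of the 6 libraries; right, FPKM (log axis) of single markers, with shapes for libraries 1 to 3 and colours for the regions. Among hippocampal libraries, library 3 is highest for Drd1 at 15.5 FPKM and lowest for Spink8 at 3.69 FPKM, and hypothalamic library 2 is lowest for Ttr at 19.8 FPKM.

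Of the 14963 genes with enough counts for a test, 2720 (18.2%) were called, which means a fold change over 1.5 in either direction and an adjusted p under 0.05 in edgeR. The regional calls were 1492 genes higher in hippocampus (9.97% of those tested) and 1228 higher in hypothalamus (8.21%). Without the TMM scaling factors, which correct for a shift in the bulk of genes between libraries, the split turned: 1253 genes were higher in hippocampus and 1533 in hypothalamus, so that 45.0% of calls were higher in hippocampus in place of 54.9%. The median log2 fold change over all genes tested was -0.00045 with TMM and -0.08 without it. A similar split, 44.1%, came from FPKM values with 0.1 added, in limma. At over 4-fold, 220 genes were called higher in hippocampus and 199 in hypothalamus, and at over 32-fold 7 and 24. Counts scaled to library size did not overlap between the regions for 7653 genes, 51.1% of those tested, and among them were 2694 of the 2720 called. With hippocampal library 3 and hypothalamic library 2 both left out, an alternative chosen after seeing the data, 2380 genes were called, 1272 of them higher in hippocampus. A difference in level between pieces of tissue can come from fewer cells of a type or from less RNA per cell, and these cannot be told apart here.

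**Figure D2:**
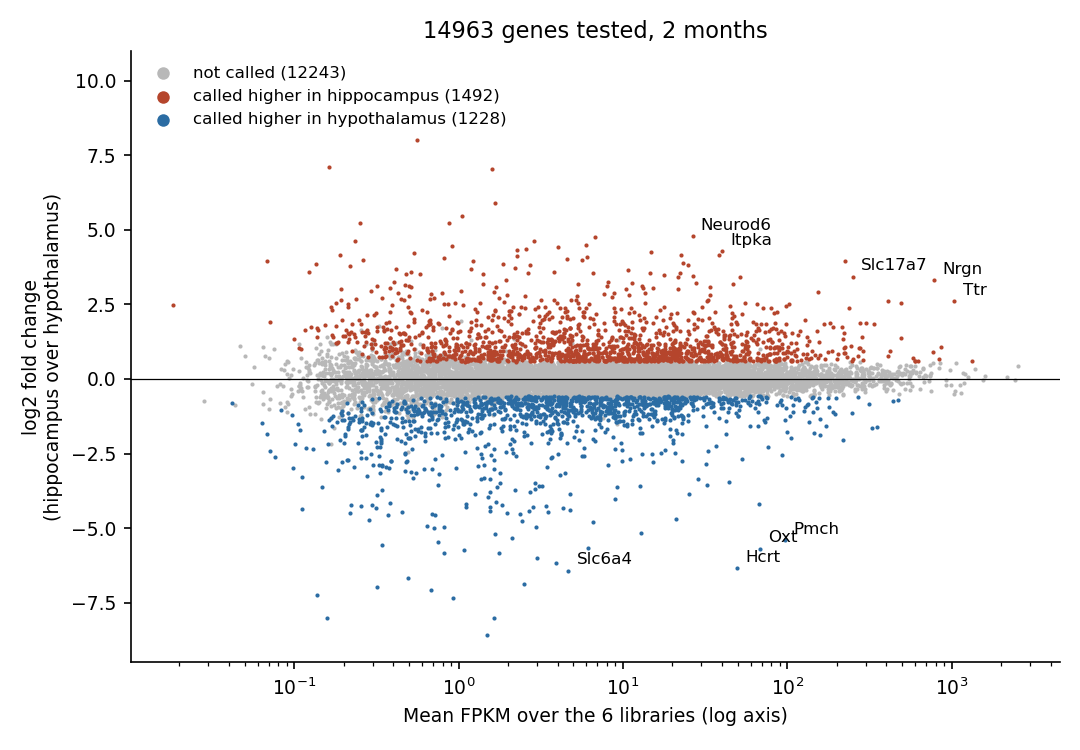
Mean FPKM over the 6 libraries (log axis) against log2 fold change (hippocampus over hypothalamus) for the 14963 genes tested, with 1 point per gene, coloured where called. The 24 genes past 32-fold in hypothalamus outnumber the 7 in hippocampus.

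Among well counted genes, those with the largest fold changes toward hippocampus included several transcription factors of the telencephalon. Neurod6 (NCBI gene 11922, chromosome 6, 55677818 to 55681263 in GRCm38), a basic helix-loop-helix factor of glutamatergic projection neurons, was at 65.5, 50.1 and 37.7 FPKM in hippocampus and 3.07, 0.72 and 2.05 FPKM in hypothalamus (log2 fold change 4.80 ± 0.38, edgeR adjusted p = 2.1e-05). Emx1 (NCBI gene 13796, chromosome 6, 85187931 to 85204463), a homeobox factor that patterns the cortex and hippocampus, was at 10.3, 15.2 and 13.7 FPKM in hippocampus and 0.83, 0.17 and 0.54 FPKM in hypothalamus (log2 fold change 4.75 ± 0.34, edgeR adjusted p = 1.2e-05). Itpka (NCBI gene 228550, chromosome 2, 119742337 to 119751253), a kinase of inositol trisphosphate in dendritic spines, was at 76, 82.2 and 69.1 FPKM in hippocampus and 4.64, 2.97 and 4.77 FPKM in hypothalamus (log2 fold change 4.29 ± 0.16, edgeR adjusted p = 8.0e-07). All 3 hippocampal libraries lay far above all 3 hypothalamic ones for these genes, and Itpka varied least within a region. Fezf2 (NCBI gene 54713, chromosome 14, 12338992 to 12346803), a zinc finger factor of deep-layer projection neurons, was at 12.5, 11.2 and 10.6 FPKM in hippocampus and 0.72, 0.33 and 0.57 FPKM in hypothalamus (log2 fold change 4.49 ± 0.20, edgeR adjusted p = 1.7e-06). Kcnh3 (NCBI gene 16512, chromosome 15, 99224517 to 99242818), a forebrain potassium channel subunit, was at 26.8, 49.4 and 51.5 FPKM in hippocampus and 2.33, 2.27 and 2.96 FPKM in hypothalamus (log2 fold change 4.17 ± 0.26, edgeR adjusted p = 6.0e-06). Igfn1 (NCBI gene 226438, chromosome 1, 135953205 to 136040925), a protein with immunoglobulin and fibronectin domains, had the largest change by this rule at 1.54, 1.63 and 1.92 FPKM in hippocampus and 0.04, 0.03 and 0.07 FPKM in hypothalamus (log2 fold change 5.21 ± 0.23, edgeR adjusted p = 1.7e-06). Again no hypothalamic library reached the lowest hippocampal value.

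In 3 further genes with large changes toward hippocampus, library 1 was the lowest hippocampal library and library 3 the highest, as for the striatal and cortical markers. Tbr1 (NCBI gene 21375, chromosome 2, 61802863 to 61814114), a T-box factor of glutamatergic neurons, was at 15.1, 28.97 and 39.9 FPKM in hippocampus and 1.38, 1.12 and 2.17 FPKM in hypothalamus (log2 fold change 4.26 ± 0.38, edgeR adjusted p = 4.5e-05). Cd4 (NCBI gene 12504, chromosome 6, 124864693 to 124888247), best known as a coreceptor of T cells, was at 1.89, 5.17 and 7.61 FPKM in hippocampus and 0.14, 0.27 and 0.36 FPKM in hypothalamus (log2 fold change 4.35 ± 0.55, edgeR adjusted p = 3.4e-04). Neither gene overlapped between regions in spite of the spread. Sh3rf2 (NCBI gene 269016), a ubiquitin ligase scaffold, was at 0.83, 1.56 and 2.81 FPKM in hippocampus and 0.03, 0.08 and 0.14 FPKM in hypothalamus (log2 fold change 4.46 ± 0.56, edgeR adjusted p = 3.3e-04).

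Toward hypothalamus the well counted genes with the largest changes included peptide precursors, transporters of monoamines and homeobox factors. Hcrt (NCBI gene 15171, chromosome 11, 100761693 to 100762931), the precursor of the orexins that sustain wakefulness, was at 95.8, 109.7 and 87.96 FPKM in hypothalamus and 1.31, 1.68 and 0.39 FPKM in hippocampus (log2 fold change -6.33 ± 0.25, edgeR adjusted p = 1.0e-06). Oxt (NCBI gene 18429, chromosome 2, 130574519 to 130577054) had a log2 fold change of -5.68 ± 0.37 (edgeR adjusted p = 7.2e-06) on the levels given above. Pmch (NCBI gene 110312, chromosome 10, 88091072 to 88092374), the precursor of melanin-concentrating hormone, was at 212, 185 and 175 FPKM in hypothalamus and 7.05, 5.2 and 0.4 FPKM in hippocampus (log2 fold change -5.39 ± 0.46, edgeR adjusted p = 3.1e-05). All 3 precursors were above 80 FPKM in each hypothalamic library and under 8 FPKM in each hippocampal library. Slc6a3 (NCBI gene 13162, chromosome 13, 73536128 to 73578672), the dopamine transporter, was at 26.9, 24.1 and 24.6 FPKM in hypothalamus and 0.98, 0.91 and 0.07 FPKM in hippocampus (log2 fold change -5.17 ± 0.42, edgeR adjusted p = 2.5e-05). Slc6a4 (NCBI gene 15567, chromosome 11, 76998597 to 77032343), the serotonin transporter, was at 10.8, 5.53 and 11.3 FPKM in hypothalamus and 0.07, 0.22 and 0 FPKM in hippocampus (log2 fold change -6.43 ± 0.53, edgeR adjusted p = 2.7e-05). For both transporters hippocampal library 3 was lowest.

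Pou4f1 (NCBI gene 18996, chromosome 14, 104461675 to 104468118), a POU factor of sensory and habenular neurons, held 0, 2 and 1 counts in hippocampus and 367, 304 and 274 counts in hypothalamus, a count ratio of 291, 95% counting interval 99.1 to 1412. En1 (NCBI gene 13798, chromosome 1, 120602487 to 120607991), a homeobox factor of the midbrain, was at 6.82, 6.02 and 4.91 FPKM in hypothalamus and 0.1, 0.16 and 0 FPKM in hippocampus (log2 fold change -6.0 ± 0.41, edgeR adjusted p = 8.8e-06). Barhl1 (NCBI gene 54422, chromosome 2, 28907680 to 28917984), a homeobox factor of the mammillary region, was at 4.33, 4.59 and 1.52 FPKM in hypothalamus and 0.1, 0.02 and 0.05 FPKM in hippocampus (log2 fold change -5.84 ± 0.59, edgeR adjusted p = 8.7e-05). Hypothalamic library 3 was the lowest of its region for all of these genes, most clearly for Barhl1. Mab21l2 (NCBI gene 23937, chromosome 3, 86546050 to 86548283), a gene of eye and midbrain development, was at 4.33, 4.33 and 3.83 FPKM in hypothalamus and 0.12, 0.07 and 0.09 FPKM in hippocampus (log2 fold change -5.33 ± 0.20, edgeR adjusted p = 8.0e-07). Calcr (NCBI gene 12311, chromosome 6, 3685678 to 3764713), the calcitonin receptor, was at 2.49, 3.13 and 4.19 FPKM in hypothalamus and 0.12, 0.07 and 0.06 FPKM in hippocampus (log2 fold change -5.20 ± 0.29, edgeR adjusted p = 3.9e-06). Both held less than 0.2 FPKM in each hippocampal library.

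Ranked by level, the called genes with over 4-fold higher expression in hippocampus were led by Ttr and by synaptic genes. Ttr (NCBI gene 22139) averaged 1769.7 FPKM in hippocampus and 310.2 FPKM in hypothalamus (log2 fold change 2.60 ± 0.83, edgeR adjusted p = 0.0363), and its call changed with single libraries: the adjusted p was 0.0894 without hippocampal library 2, 0.0576 without hypothalamic library 1 and 0.0778 without hypothalamic library 3. With the mouse number as a block it was 0.0508, in DESeq2 0.05002, and over all alternatives it ranged from 1.7e-04 to 0.0894. Nrgn (NCBI gene 64011, chromosome 9, 37544493 to 37552745), a postsynaptic protein that binds calmodulin, was at 915, 1473 and 1849 FPKM in hippocampus and 191, 165 and 101 FPKM in hypothalamus (log2 fold change 3.31 ± 0.30, edgeR adjusted p = 4.7e-05). Camk2a (NCBI gene 12322), the kinase subunit central to long-term potentiation, was at 799, 902 and 810.2 FPKM in hippocampus and 165, 137 and 159 FPKM in hypothalamus (log2 fold change 2.56 ± 0.09, edgeR adjusted p = 8.0e-07). Hpca (NCBI gene 15444, chromosome 4, 129111570 to 129125919), the calcium sensor hippocalcin, was at 757, 721 and 619.9 FPKM in hippocampus and 136, 111 and 118 FPKM in hypothalamus (log2 fold change 2.60 ± 0.10, edgeR adjusted p = 9.1e-07). Slc17a7 (NCBI gene 72961, chromosome 7, 45163921 to 45176139), whose levels are given above, had a log2 fold change of 3.43 ± 0.13 (edgeR adjusted p = 8.0e-07). Nrgn was lowest in hippocampal library 1, while Camk2a, Hpca and Slc17a7 varied little within hippocampus.

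The most abundant genes with over 4-fold higher expression in hypothalamus were Resp18, Pmch, Calb2, Oxt and Avp. Resp18 (NCBI gene 19711, chromosome 1, 75272197 to 75278415), a protein of secretory granules in endocrine cells, was at 366, 371 and 337 FPKM in hypothalamus and 88.2, 76 and 79.1 FPKM in hippocampus (log2 fold change -2.05 ± 0.08, edgeR adjusted p = 8.0e-07). Calb2 (NCBI gene 12308, chromosome 8, 110142526 to 110168212), the calcium buffer calretinin, was at 167, 163 and 147 FPKM in hypothalamus and 41.9, 19.5 and 16.4 FPKM in hippocampus (log2 fold change -2.53 ± 0.30, edgeR adjusted p = 2.1e-04). Avp (NCBI gene 11998, chromosome 2, 130580620 to 130582588), the vasopressin precursor, was at 99.96, 159 and 124 FPKM in hypothalamus and 9.84, 6.51 and 3.44 FPKM in hippocampus (log2 fold change -4.18 ± 0.30, edgeR adjusted p = 1.2e-05). Groups were apart for each of them, and hippocampal library 1 was the highest of its region for all 3.

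Promoters, from 250 bases before to 50 bases after the start of transcription, are shown for 8 genes, 4 higher in each region, because the genes mark glutamatergic neurons of hippocampus and peptide neurons of hypothalamus. They come from RefSeq for GRCm38.p6, which had a promoter for 21 of the 28 genes that the rules on size of change and level select. The search covered 4 motifs on both strands: TGACGTCA, the cAMP response element; AGGTCA or TGACCT, the hexamer bound by nuclear receptors; TAATTA, a homeodomain core; and CATCTG or CAGATG, an E-box of basic helix-loop-helix factors. Capitals mark these letters, and the sequences run 5′ to 3′ on the strand of the gene. Neurod6 lies at chr6:55681214-55681513, minus strand, Tbr1 at chr2:61804203-61804502, plus strand, Slc17a7 at chr7:45163671-45163970, plus strand and Nrgn at chr9:37552696-37552995, minus strand.
Neurod6: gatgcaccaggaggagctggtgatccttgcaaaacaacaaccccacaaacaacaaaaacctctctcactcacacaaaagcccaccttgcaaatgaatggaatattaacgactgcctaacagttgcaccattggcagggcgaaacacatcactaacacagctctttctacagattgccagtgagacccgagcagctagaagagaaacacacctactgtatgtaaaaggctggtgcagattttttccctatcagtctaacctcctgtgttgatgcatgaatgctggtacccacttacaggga
Tbr1: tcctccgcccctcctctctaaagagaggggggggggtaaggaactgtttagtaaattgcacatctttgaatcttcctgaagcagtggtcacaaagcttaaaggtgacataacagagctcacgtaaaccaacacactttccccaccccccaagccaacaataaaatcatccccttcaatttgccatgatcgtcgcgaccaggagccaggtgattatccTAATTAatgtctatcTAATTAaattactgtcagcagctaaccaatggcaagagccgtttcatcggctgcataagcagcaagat
Slc17a7: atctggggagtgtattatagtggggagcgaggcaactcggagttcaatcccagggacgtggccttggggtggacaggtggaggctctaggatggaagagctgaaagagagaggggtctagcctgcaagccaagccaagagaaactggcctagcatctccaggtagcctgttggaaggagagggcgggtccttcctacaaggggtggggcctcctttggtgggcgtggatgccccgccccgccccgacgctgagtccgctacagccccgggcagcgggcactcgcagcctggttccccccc
Nrgn: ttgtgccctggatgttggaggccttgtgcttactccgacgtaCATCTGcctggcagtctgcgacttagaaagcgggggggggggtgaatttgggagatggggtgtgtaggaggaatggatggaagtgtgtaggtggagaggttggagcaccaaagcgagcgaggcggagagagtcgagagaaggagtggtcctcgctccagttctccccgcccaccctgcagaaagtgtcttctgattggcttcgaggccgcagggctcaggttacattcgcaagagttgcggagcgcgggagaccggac
Tbr1 holds TAATTA at 2 places and Nrgn an E-box at 1, and none of the motifs is in the windows of Neurod6 and Slc17a7.

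Among the peptide genes of the hypothalamus, Oxt lies at chr2:130575919-130576218, plus strand, Hcrt at chr11:100762882-100763181, minus strand, Pmch at chr10:88090822-88091121, plus strand and Pomc, the precursor of melanocortins, which the rules on size of change and level do not select and which was chosen after its values were seen, at chr12:3954695-3954994, plus strand.
Oxt: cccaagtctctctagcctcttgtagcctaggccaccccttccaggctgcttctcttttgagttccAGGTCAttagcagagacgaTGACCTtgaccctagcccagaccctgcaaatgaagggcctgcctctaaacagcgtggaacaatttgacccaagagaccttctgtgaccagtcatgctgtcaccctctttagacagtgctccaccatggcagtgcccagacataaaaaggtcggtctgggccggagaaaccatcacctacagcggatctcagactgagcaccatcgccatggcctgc
Hcrt: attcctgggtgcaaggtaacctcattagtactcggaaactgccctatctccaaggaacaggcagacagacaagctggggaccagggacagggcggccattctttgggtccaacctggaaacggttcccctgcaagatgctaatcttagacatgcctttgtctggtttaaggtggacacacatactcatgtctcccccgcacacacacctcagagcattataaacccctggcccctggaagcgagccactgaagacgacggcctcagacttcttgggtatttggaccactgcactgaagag
Pmch: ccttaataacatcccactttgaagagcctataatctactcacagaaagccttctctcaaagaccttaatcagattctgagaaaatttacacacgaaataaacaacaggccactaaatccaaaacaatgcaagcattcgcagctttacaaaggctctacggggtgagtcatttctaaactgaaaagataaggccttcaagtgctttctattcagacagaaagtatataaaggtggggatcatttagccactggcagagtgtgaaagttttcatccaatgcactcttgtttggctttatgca
Pomc: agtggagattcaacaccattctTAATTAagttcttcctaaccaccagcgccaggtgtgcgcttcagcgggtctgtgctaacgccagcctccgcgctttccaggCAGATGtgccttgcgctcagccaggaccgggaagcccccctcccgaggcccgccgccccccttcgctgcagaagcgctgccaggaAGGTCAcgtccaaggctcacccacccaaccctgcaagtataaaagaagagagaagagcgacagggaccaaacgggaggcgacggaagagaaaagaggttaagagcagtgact
The Oxt window holds the nuclear receptor hexamer at 2 places, and that of Pomc holds 1 hexamer, 1 homeodomain core and 1 E-box. Hcrt and Pmch hold none. Of all 32851 promoters of this length, 1.79% hold the cAMP response element, 16.3% the nuclear receptor hexamer, 5.29% the homeodomain core and 17.2% the E-box. For promoters of genes called higher in hypothalamus the shares were 2.21%, 13.7%, 3.93% and 15.0% in the same order. For those called higher in hippocampus they were 1.68%, 12.5%, 3.30% and 14.0%, and over promoters of all genes tested 2.79%, 12.6%, 2.82% and 12.1%. A match describes letters in a window and nothing about binding.

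Most precursors of peptides made by hypothalamic neurons were higher in hypothalamus. Of 23 precursors, 21 were tested: 16 were called higher in hypothalamus, 2 higher in hippocampus and 3 not called. Beside list counts the shares of all genes called higher in hippocampus and in hypothalamus, in this order, are repeated as: all genes 9.97% and 8.21%. The precursors had a median log2 fold change of -2.93, or -2.58 with Npvf, at 0 in every hippocampal library, placed at its bound. Agrp, which drives feeding, was at 2.14, 2.6 and 2.35 FPKM in hypothalamus and 0.26, 0.13 and 0.07 FPKM in hippocampus (log2 fold change -3.85 ± 0.41, edgeR adjusted p = 1.3e-04). Pomc, whose products restrain feeding, was at 6.49, 6.79 and 7.33 FPKM in hypothalamus and 1.18, 1.05 and 1.2 FPKM in hippocampus (log2 fold change -2.52 ± 0.16, edgeR adjusted p = 6.6e-06). Cartpt, the precursor of the satiety peptide CART, was at 83.8, 85.4 and 76.3 FPKM in hypothalamus and 4.95, 7.37 and 8.64 FPKM in hippocampus (log2 fold change -3.46 ± 0.17, edgeR adjusted p = 2.1e-06). These genes of the arcuate nucleus and its neighbours were separate between regions, with Agrp under 0.3 FPKM in each hippocampal library. Gal, the galanin precursor, was at 14.9, 19.6 and 16.8 FPKM in hypothalamus and 1.99, 1.28 and 0.6 FPKM in hippocampus (log2 fold change -3.63 ± 0.29, edgeR adjusted p = 2.4e-05). Npvf, the precursor of RFamide-related peptides, had 0 counts in each hippocampal library and was at least 5.34-fold higher in hypothalamus, taking 3 counts per library as the floor. Requiring 10 counts in every library removed several of these precursors from the test, and 9 were then called.

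Npy and Vip were the precursors of this list that were higher in hippocampus, where interneurons make both. Npy, the neuropeptide Y precursor, was at 88.1, 182 and 224 FPKM in hippocampus and 32.9, 36.5 and 26.7 FPKM in hypothalamus (log2 fold change 2.46 ± 0.31, edgeR adjusted p = 3.0e-04). Vip, the precursor of vasoactive intestinal peptide, was at 13.8, 17.2 and 16.4 FPKM in hippocampus and 4.97, 5.68 and 3.76 FPKM in hypothalamus (log2 fold change 1.81 ± 0.16, edgeR adjusted p = 3.5e-05). Hippocampal library 1 was the lowest hippocampal library for both, and still above every hypothalamic library. Crh, the precursor of corticotropin-releasing hormone, overlapped between regions at 2.78, 2.77 and 2.76 FPKM in hippocampus and 1.95, 3.16 and 3.49 FPKM in hypothalamus.

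**Figure D3:**
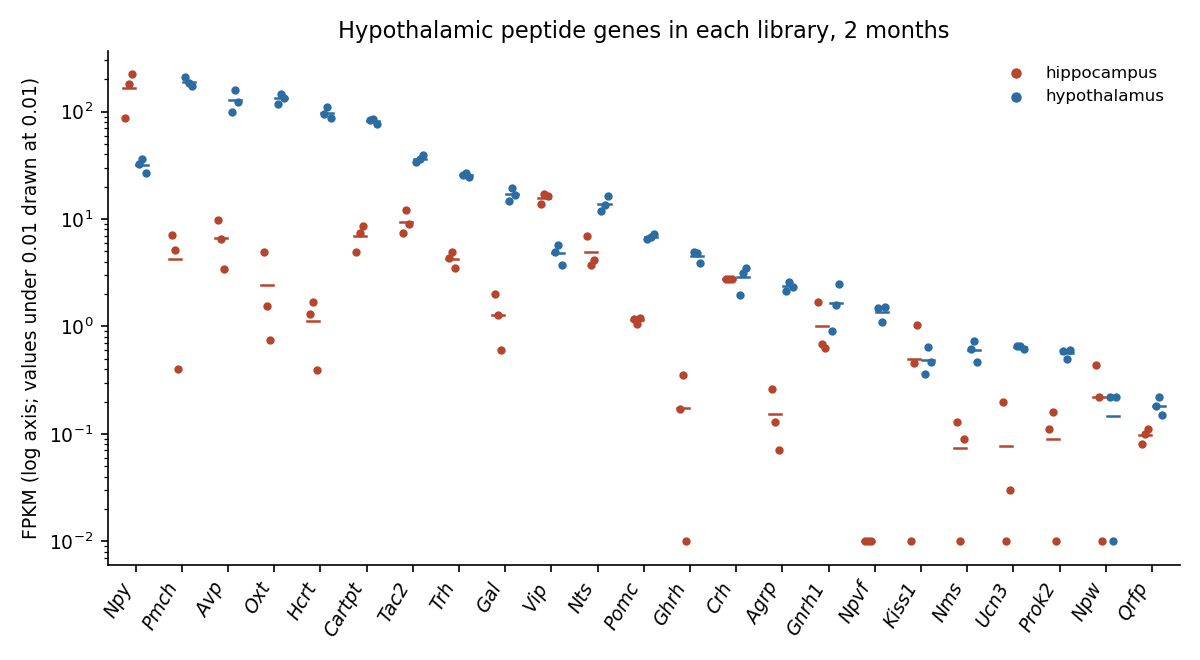
FPKM (log axis) of precursor genes of hypothalamic peptides in each library at 2 months, with 1 point per library and a line at the mean of 3. Pmch, Avp, Oxt and Hcrt lie above 80 FPKM in every hypothalamic library, and Npy is higher in hippocampus, up to 224 FPKM.

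Peptide genes with known sources in both regions divided between them. Of 18 tested, 9 were higher in hippocampus and 5 in hypothalamus (all genes 9.97% and 8.21%), and the median log2 fold change was 0.64. Cck, the cholecystokinin precursor, was at 489.9, 507 and 551 FPKM in hippocampus and 182, 162 and 121 FPKM in hypothalamus (log2 fold change 1.83 ± 0.14, edgeR adjusted p = 1.5e-05). Sst, the somatostatin precursor, was at 323, 359.7 and 402 FPKM in hippocampus and 178, 212 and 179 FPKM in hypothalamus (log2 fold change 1.03 ± 0.10, edgeR adjusted p = 8.7e-05). In the other direction Adcyap1, the precursor of PACAP, was at 16.5, 14.4 and 14.5 FPKM in hypothalamus and 2.86, 2.69 and 2.94 FPKM in hippocampus (log2 fold change -2.35 ± 0.09, edgeR adjusted p = 8.0e-07). Regions were apart for all 3. Pdyn, the dynorphin precursor, was not called at a log2 fold change of 0.67 ± 0.24 (edgeR adjusted p = 0.0594), but was with the mouse number as a block (adjusted p = 0.00475), without hippocampal library 1 (0.00358) and without hypothalamic library 3 (0.0465). Its adjusted p ranged from 0.00358 to 0.182 over the alternatives.

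Of 8 genes for enzymes that cut and trim peptide precursors or for proteins that assist or inhibit them, 1 was called (12.5%, against 18.2% of all genes), higher in hypothalamus, and their median log2 fold change was -0.04. That gene was Pcsk1, a prohormone convertase, at 9.56, 8.17 and 10.3 FPKM in hypothalamus and 5.71, 2.78 and 4.5 FPKM in hippocampus (log2 fold change -1.02 ± 0.22, edgeR adjusted p = 0.00572). Cpe, carboxypeptidase E, was the most abundant of them at 1299, 1277 and 1112 FPKM in hippocampus and 1202, 1251 and 1067 FPKM in hypothalamus, and its groups overlapped.

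Of 48 receptors for peptides and metabolic hormones, 9 were higher in hippocampus and 19 in hypothalamus (all genes 9.97% and 8.21%), with a median log2 fold change of -0.33. Mc3r, a melanocortin receptor, was at 1.43, 1.19 and 1.5 FPKM in hypothalamus and 0.22, 0.17 and 0.03 FPKM in hippocampus (log2 fold change -3.19 ± 0.40, edgeR adjusted p = 3.1e-04). Hcrtr2, an orexin receptor, was at 1.88, 1.86 and 1.67 FPKM in hypothalamus and 0.71, 0.43 and 0.34 FPKM in hippocampus (log2 fold change -1.79 ± 0.23, edgeR adjusted p = 4.1e-04). Both were under 0.8 FPKM in each hippocampal library. Higher in hippocampus was Vipr1, a receptor for vasoactive intestinal peptide, at 4.19, 4.61 and 6.36 FPKM in hippocampus and 0.4, 0.33 and 0.42 FPKM in hypothalamus (log2 fold change 3.81 ± 0.20, edgeR adjusted p = 2.7e-06). Mchr1, the receptor for melanin-concentrating hormone, was also higher there at 8.46, 11.7 and 13.2 FPKM in hippocampus and 5.7, 5.23 and 5.4 FPKM in hypothalamus (log2 fold change 1.12 ± 0.16, edgeR adjusted p = 6.4e-04), while the mRNA of its ligand was higher in hypothalamus. Lepr and Mc4r, receptors for leptin and melanocortins, were not called, with log2 fold changes of 0.25 and 0.30.

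Transcription factors known from the hypothalamus were mostly called in its direction. Of 33 hypothalamic factors tested, 23 were higher in hypothalamus, 3 in hippocampus and 7 were not called (all genes 8.21% in hypothalamus and 9.97% in hippocampus). The median log2 fold change was -3.27, or -2.33 with Nkx2-4, at 0 in every hippocampal library, placed at its bound. Otp, a homeobox factor of neuroendocrine neurons, held 1, 1 and 1 counts in hippocampus and 119, 140 and 162 counts in hypothalamus, a count ratio of 129, 95% counting interval 44 to 630.4. Nr5a1, the factor SF-1 of the ventromedial nucleus, was at 0.82, 0.76 and 0.57 FPKM in hypothalamus and 0, 0.03 and 0.06 FPKM in hippocampus (log2 fold change -4.55 ± 0.51, edgeR adjusted p = 1.7e-04). Nkx2-1, needed for the hypothalamus to form, was at 2.25, 2.87 and 4.33 FPKM in hypothalamus and 1.12, 0.82 and 0.88 FPKM in hippocampus (log2 fold change -1.66 ± 0.25, edgeR adjusted p = 9.7e-04). None of these overlapped between regions. Nkx2-4 had 0 counts in all hippocampal libraries and was at least 5.03-fold higher in hypothalamus, on a floor of 3 counts per library. Lhx6, a LIM homeobox factor of interneurons, was not called (log2 fold change 1.19 ± 0.43, edgeR adjusted p = 0.0558), but was with the mouse number as a block (adjusted p = 0.0142), without hippocampal library 1 (0.0371) and without hypothalamic library 3 (0.00729), and its adjusted p ranged from 0.00729 to 0.145 over the alternatives. With at least 10 counts required in every library, 10 members were called.

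Factors of the hippocampus and dorsal telencephalon went the opposite way: 25 of 30 were higher in hippocampus, 1 was higher in hypothalamus and 4 were not called (all genes 9.97% and 8.21%), and the median log2 fold change was 1.65. Mef2c, which regulates synapse number, was at 33.9, 58.1 and 73.6 FPKM in hippocampus and 9.39, 9.77 and 9.6 FPKM in hypothalamus (log2 fold change 2.61 ± 0.24, edgeR adjusted p = 5.3e-05). Zbtb20, a repressor required for CA1 identity, differed less at 11.6, 11.3 and 6.99 FPKM in hippocampus and 5.56, 5.58 and 5.47 FPKM in hypothalamus (log2 fold change 0.93 ± 0.18, edgeR adjusted p = 0.00315). Both were higher in all 3 hippocampal libraries. Lef1, a factor of the Wnt pathway that is also strong in thalamus, was the member higher in hypothalamus at 11, 13.03 and 10.7 FPKM in hypothalamus and 6.18, 4.63 and 4.66 FPKM in hippocampus (log2 fold change -1.05 ± 0.13, edgeR adjusted p = 3.0e-04).

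Markers of the hippocampal fields differed in how far they separated the tissues. For CA1, 9 of 11 were higher in hippocampus and 0 in hypothalamus (all genes 9.97% and 8.21%), with a median log2 fold change of 1.71. Spink8 had a log2 fold change of 4.41 ± 0.60 (edgeR adjusted p = 5.2e-04) on the levels given above. For the dentate gyrus, 9 of 16 were higher in hippocampus and 0 in hypothalamus, with a median of 0.89. Dsp, the desmosomal protein desmoplakin of granule cells, was at 3.67, 2.98 and 1.17 FPKM in hippocampus and 1.07, 0.21 and 0.61 FPKM in hypothalamus (log2 fold change 2.13 ± 0.52, edgeR adjusted p = 0.0115). Calb1, calbindin, the most abundant of them, was not called at 37, 43.8 and 49.2 FPKM in hippocampus and 42.5, 42.1 and 43.5 FPKM in hypothalamus.

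For CA3, 5 of 13 markers were higher in hippocampus and 1 in hypothalamus (all genes 9.97% and 8.21%), with a median log2 fold change of 0.58. The marker higher in hypothalamus was Nnat (log2 fold change -0.83, edgeR adjusted p = 0.0487). Its call was lost in DESeq2 (adjusted p = 0.109), without hippocampal library 2 or 3, and without hypothalamic library 1, 2 or 3. Tyro3, a receptor kinase, was at 37.4, 45.7 and 53.4 FPKM in hippocampus and 18.04, 19.5 and 22.9 FPKM in hypothalamus (log2 fold change 1.26 ± 0.14, edgeR adjusted p = 1.5e-04). In limma on log2(FPKM + 1) with no filter, 3 CA3 markers were called in place of 6. For CA2 the directions were even, with 3 higher in hippocampus, 3 in hypothalamus and 3 not called of 9, and a median of 0.11. Rgs14, which limits plasticity in CA2, was at 26.4, 24.4 and 20.1 FPKM in hippocampus and 2.87, 2.33 and 3.87 FPKM in hypothalamus (log2 fold change 3.05 ± 0.17, edgeR adjusted p = 4.1e-06). Amigo2, an adhesion protein, was higher in hypothalamus at 21.7, 22.4 and 22.5 FPKM in hypothalamus and 10.7, 8.23 and 6.94 FPKM in hippocampus (log2 fold change -1.26 ± 0.13, edgeR adjusted p = 1.2e-04). All hippocampal libraries were on the same side of all hypothalamic ones for Tyro3, Rgs14 and Amigo2.

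Of 17 genes of hippocampal interneurons, 8 were higher in hippocampus and 3 in hypothalamus (all genes 9.97% and 8.21%), with a median log2 fold change of 0.93. Lamp5, which is also in the cortical list, had a log2 fold change of 2.82 ± 0.35 (edgeR adjusted p = 3.0e-04). Lamp5 and Npy, both of this list, rose from hippocampal library 1 to 3 as the striatal and cortical markers did, while Kit fell. Pvalb, parvalbumin, was not called, at 88.6, 99.61 and 106 FPKM in hippocampus and 129, 123 and 85.4 FPKM in hypothalamus, and its groups overlapped. The genes of this list higher in hypothalamus were Calb2 and the general GABA genes Gad2 and Slc32a1.

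Of 13 genes of the fast transmitters tested, 1 was higher in hippocampus, 7 were higher in hypothalamus and 5 were not called (all genes 9.97% and 8.21%), and the median log2 fold change was -0.66. Slc17a6, the vesicular glutamate transporter of diencephalic neurons, was at 96.3, 95.9 and 83.9 FPKM in hypothalamus and 18.3, 10.8 and 11.7 FPKM in hippocampus (log2 fold change -2.68 ± 0.19, edgeR adjusted p = 1.1e-05), against the log2 fold change of 3.43 for Slc17a7. Gad2, which makes GABA, was at 68.7, 78.6 and 89.2 FPKM in hypothalamus and 40.2, 37.3 and 43.3 FPKM in hippocampus (log2 fold change -0.88 ± 0.10, edgeR adjusted p = 2.1e-04). Slc6a11, a GABA transporter of astrocytes, was at 231, 233 and 225 FPKM in hypothalamus and 71.5, 58.3 and 56.5 FPKM in hippocampus (log2 fold change -1.80 ± 0.09, edgeR adjusted p = 2.4e-06). Groups did not overlap for any of these.

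Genes for monoamines and acetylcholine were called in 1 direction: 9 of 17 were higher in hypothalamus and 0 in hippocampus (all genes 8.21% in hypothalamus and 9.97% in hippocampus), with a median log2 fold change of -2.15. Th, which makes the dopamine precursor, was at 42.2, 40.3 and 38.8 FPKM in hypothalamus and 1.15, 1.71 and 1.59 FPKM in hippocampus (log2 fold change -4.68 ± 0.13, edgeR adjusted p = 4.6e-07). Tph2, which commits tryptophan to serotonin in neurons, was at 16.6, 8.85 and 12.8 FPKM in hypothalamus and 0.37, 0.4 and 0.53 FPKM in hippocampus (log2 fold change -4.78 ± 0.27, edgeR adjusted p = 4.1e-06). All 3 hypothalamic libraries were above all hippocampal ones. Cell bodies with Tph2 and Slc6a4 are known from the raphe nuclei of the brainstem, and those with Slc6a3 mostly from the midbrain, and the part of such tissue in the hypothalamic pieces was not tested. Slc5a7 and Slc18a3, transporters of cholinergic neurons, were called only in other fits, with log2 fold changes of -0.92 and -0.72. With the mouse number as a block their adjusted p was 5.7e-04 (5.7e-04 to 0.341 over the alternatives) and 0.00777 (0.00777 to 0.359). Without hippocampal library 3 it was 0.0104 and 0.04, and for Slc18a3 without hypothalamic library 1 0.0391.

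Of 18 ionotropic subunits, 6 were higher in hippocampus, 6 in hypothalamus and 6 were not called (all genes 9.97% and 8.21%), with a median log2 fold change of 0.21. Grin2b, an NMDA receptor subunit of forebrain neurons, was at 5.13, 4.96 and 4.03 FPKM in hippocampus and 1.3, 1.47 and 1.71 FPKM in hypothalamus (log2 fold change 1.74 ± 0.13, edgeR adjusted p = 1.4e-05). Grin2d, a subunit of the diencephalon and interneurons, was at 18.1, 19.2 and 21.1 FPKM in hypothalamus and 6.07, 5.62 and 5.92 FPKM in hippocampus (log2 fold change -1.65 ± 0.08, edgeR adjusted p = 2.1e-06). The obligatory subunit Grin1 was not called, at 148, 169 and 176 FPKM in hippocampus and 128, 139 and 137 FPKM in hypothalamus. Of 7 metabotropic receptors, 2 were higher in hippocampus and 3 in hypothalamus, with a median of -0.16. Grm5, a receptor at the edge of excitatory synapses, was at 23.1, 21.3 and 23.1 FPKM in hippocampus and 13.2, 13.9 and 16.5 FPKM in hypothalamus (log2 fold change 0.72 ± 0.09, edgeR adjusted p = 3.5e-04).

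Of 15 subunits of GABA-A receptors, 2 were higher in hippocampus and 4 in hypothalamus (all genes 9.97% and 8.21%), with a median log2 fold change of -0.39. Gabra5, a subunit of tonic inhibition in pyramidal cells, was at 51.9, 44.1 and 27.2 FPKM in hippocampus and 20.7, 19.3 and 18.2 FPKM in hypothalamus (log2 fold change 1.16 ± 0.19, edgeR adjusted p = 0.00157). Gabre and Gabrq, genes of the same cluster for subunits of hypothalamic and brainstem neurons, were the furthest in the other direction. Gabrq was at 7.68, 7.28 and 9.99 FPKM in hypothalamus and 0.64, 0.32 and 0.18 FPKM in hippocampus (log2 fold change -4.32 ± 0.32, edgeR adjusted p = 1.5e-05), and Gabre had a log2 fold change of -4.50 ± 0.42. Gabrg3 was called only with the mouse number as a block (adjusted p = 0.0366, and 0.0366 to 0.471 over the alternatives). Of 12 serotonin receptors, 3 were higher in hippocampus and 2 in hypothalamus, with a median of 0.32. Htr1d, an inhibitory receptor on axon terminals, was not called at under 1.5-fold (log2 fold change -0.58 ± 0.20, edgeR adjusted p = 0.0461), but was with the mouse number as a block (log2 fold change -0.60, adjusted p = 0.0491) and without hippocampal library 3 (0.0124, and 0.0124 to 0.138 over the alternatives). Htr2c, a receptor on neurons that restrain feeding and in choroid plexus, was at 27.6, 28.4 and 28.8 FPKM in hypothalamus and 12.4, 10.3 and 7.97 FPKM in hippocampus (log2 fold change -1.38 ± 0.13, edgeR adjusted p = 6.4e-05).

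Of 11 receptors for steroids, thyroid hormone and retinoids, 5 were higher in hippocampus and 1 in hypothalamus (all genes 9.97% and 8.21%), with a median log2 fold change of 0.42. Esr1, estrogen receptor alpha, was at 1.21, 1.07 and 1.54 FPKM in hypothalamus and 0.3, 0.32 and 0.43 FPKM in hippocampus (log2 fold change -1.77 ± 0.20, edgeR adjusted p = 1.7e-04). It was the member higher in hypothalamus, and its groups did not overlap. Nr3c1, the glucocorticoid receptor, was not called at 14.3, 13.5 and 16.02 FPKM in hippocampus and 14.9, 14.8 and 16.6 FPKM in hypothalamus. In limma on log2(FPKM + 1) without a filter, 1 member of this list was called in place of 6. Rxrg and Rarb, both higher in hippocampus, lost their calls without hypothalamic library 1 (edgeR adjusted p = 0.0753 and 0.0712). Without hypothalamic library 2 these calls were lost as well (edgeR adjusted p = 0.0647 and 0.0599).

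Genes of postsynaptic plasticity were higher in hippocampus almost throughout: 22 of 24 were called in that direction, 1 in hypothalamus and 1 not (all genes 9.97% and 8.21%), with a median log2 fold change of 1.56. Their summed level was 5874, 6586 and 6437 FPKM in hippocampus and 1969, 1868 and 1847 FPKM in hypothalamus, with Nrgn the most abundant on average. Ddn, the dendritic protein dendrin, was at 424, 474 and 363 FPKM in hippocampus and 32.4, 18.7 and 34.8 FPKM in hypothalamus (log2 fold change 3.96 ± 0.23, edgeR adjusted p = 4.3e-06). Dlg4, the scaffold PSD-95, differed less at 224, 255 and 251 FPKM in hippocampus and 132, 134 and 135 FPKM in hypothalamus (log2 fold change 0.95 ± 0.07, edgeR adjusted p = 1.8e-05). No hypothalamic library reached a hippocampal one for either gene. Adcy8, a calcium-stimulated adenylyl cyclase, was higher in hypothalamus at 10.7, 9.44 and 10.4 FPKM in hypothalamus and 6.2, 4.73 and 4.05 FPKM in hippocampus (log2 fold change -0.95 ± 0.13, edgeR adjusted p = 6.5e-04).

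Immediate early genes, which neuronal activity switches on within minutes, were also higher in hippocampus, with 14 of 19 called, 0 called in hypothalamus (all genes 9.97% and 8.21%) and a median log2 fold change of 1.56. Arc, a regulator of glutamate receptor uptake at synapses, was at 50.1, 55.6 and 62.5 FPKM in hippocampus and 8.56, 10.03 and 9.87 FPKM in hypothalamus (log2 fold change 2.65 ± 0.11, edgeR adjusted p = 1.0e-06). Egr1, a zinc finger factor, was at 44.5, 54.04 and 71.7 FPKM in hippocampus and 15.9, 21.01 and 20.02 FPKM in hypothalamus (log2 fold change 1.67 ± 0.18, edgeR adjusted p = 1.2e-04). Nr4a1, an orphan nuclear receptor, was at 26.4, 32.8 and 32.5 FPKM in hippocampus and 7.11, 8.11 and 8.38 FPKM in hypothalamus (log2 fold change 2.04 ± 0.11, edgeR adjusted p = 3.4e-06). All 3 were apart between regions. Fos, the best known member, was not called at 5.08, 5.33 and 5.87 FPKM in hippocampus and 5.81, 6.58 and 6.71 FPKM in hypothalamus, and its groups overlapped.

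Imprinted genes, which are expressed from the copy of a single parent in at least some tissues, were mostly higher in hypothalamus. Of 35 in the list, 30 were tested: 18 were higher in hypothalamus, 3 in hippocampus and 9 were not called (all genes 8.21% in hypothalamus and 9.97% in hippocampus), with a median log2 fold change of -0.99. Dlk1, a paternally expressed ligand of the Notch type, was at 41.1, 46.4 and 55.7 FPKM in hypothalamus and 5.43, 2.22 and 1.69 FPKM in hippocampus (log2 fold change -3.86 ± 0.36, edgeR adjusted p = 5.6e-05). Magel2, of the Prader-Willi region, was at 6.2, 8.19 and 9.83 FPKM in hypothalamus and 1.33, 0.7 and 0.56 FPKM in hippocampus (log2 fold change -3.14 ± 0.29, edgeR adjusted p = 4.8e-05). Ndn, necdin, from the same region, was at 359, 355 and 327 FPKM in hypothalamus and 173, 138 and 129 FPKM in hippocampus (log2 fold change -1.15 ± 0.10, edgeR adjusted p = 4.6e-05). Separation held for all of these genes. Cdkn1c, an inhibitor of the cell cycle, was higher in hippocampus at 6.62, 7.07 and 6.46 FPKM in hippocampus and 4.78, 3.9 and 3.26 FPKM in hypothalamus (log2 fold change 0.84 ± 0.14, edgeR adjusted p = 0.00164). Igf2 and Mest, also higher in hippocampus, lost their calls without hippocampal library 2 (edgeR adjusted p = 0.0687 for Igf2, log2 fold change 0.58 for Mest). Nnat, higher in hypothalamus, lost its call there too (edgeR adjusted p = 0.142). Without TMM Igf2 and Mest were not called, while Gnas, Rasgrf1 and Inpp5f gained calls in hypothalamus. Values of Nnat, which lies within Blcap, of Blcap and of Snrpn are uncertain, since these genes overlap others and the use of strand in counting is not given in the sources used here.

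**Figure D4:**
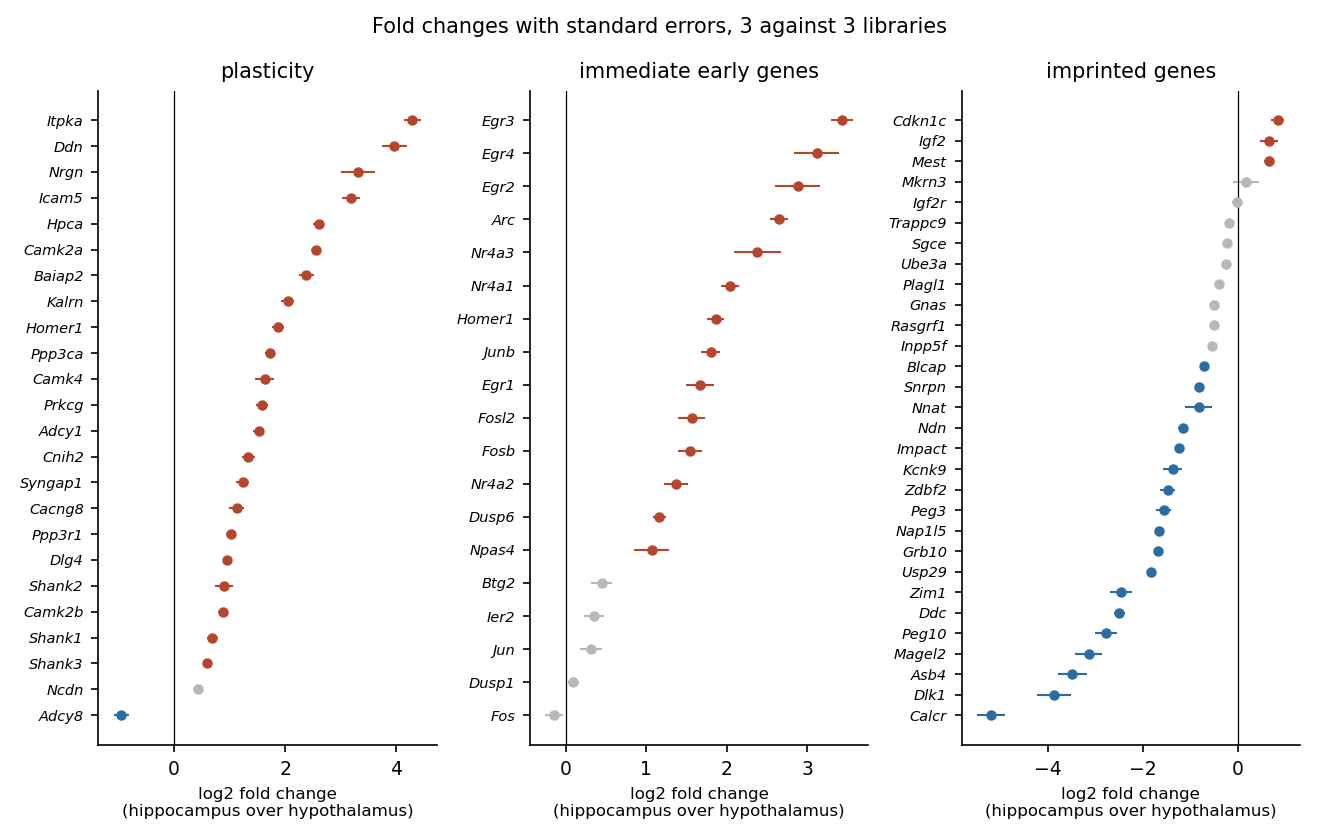
Log2 fold change (hippocampus over hypothalamus) with its standard error, 3 against 3 libraries, for each tested gene of plasticity, of the immediate early response and of the imprinted list, coloured where called (red higher in hippocampus, blue higher in hypothalamus, grey not called). Medians of the lists are 1.56, 1.56 and -0.99.

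Genes of the circadian clock were called in about the share of all genes, 15.8% against 18.2%: 2 of 19 were higher in hippocampus, 1 was higher in hypothalamus and 16 were not called, with a median log2 fold change of 0.31. Without hippocampal library 1, 5 were called. Npas2, a partner of the clock factor Arntl in the forebrain, was at 10.3, 12.3 and 14.02 FPKM in hippocampus and 4.25, 5.11 and 5.26 FPKM in hypothalamus (log2 fold change 1.41 ± 0.13, edgeR adjusted p = 5.5e-05), while Arntl itself was not called. Genes of the suprachiasmatic nucleus, the seat of the central clock, were called higher in hypothalamus for 7 of 12, with 1, Vip, higher in hippocampus. Their median was -1.22 (all genes called: 8.21% in hypothalamus and 9.97% in hippocampus). Lhx1, a homeobox factor that couples its neurons, was at 2.76, 2.49 and 2.32 FPKM in hypothalamus and 0.37, 0.27 and 0.06 FPKM in hippocampus (log2 fold change -3.35 ± 0.37, edgeR adjusted p = 1.5e-04). Only 4 of these genes were called when every library had to hold 10 counts. Syt10, a synaptotagmin of that nucleus, was not called in edgeR, but was without hippocampal library 1 (adjusted p = 0.0357) or hypothalamic library 2 (0.0423) and with the mouse number as a block (adjusted p = 0.0239, and 0.0239 to 0.248 over the alternatives).

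None of the 17 Hox genes listed, which mark hindbrain and spinal cord, had enough counts for a test, and their summed level was 0.09, 0.11 and 0.12 FPKM in hippocampus and 0.18, 0.27 and 0.21 FPKM in hypothalamus. Genes of adult neurogenesis and the cell cycle, some of which mark the dentate germinal zone, were higher in hippocampus for 7 of 16 and in hypothalamus for 2 (all genes 9.97% and 8.21%), with a median log2 fold change of 0.34. The 2 were Calb2 and Tubb3, with log2 fold changes of -2.53 and -0.60. At 15 months 14 genes of this list were tested, and their median was -0.015. Neurod1, a factor of newborn granule cells, was at 8.15, 7.02 and 5.46 FPKM in hippocampus and 2.85, 2.5 and 2.58 FPKM in hypothalamus (log2 fold change 1.47 ± 0.15, edgeR adjusted p = 9.8e-05). Calls in this list fell from 9 to 5 without hypothalamic library 2, and to 3 or 4 in the fits on FPKM. Cdk1, a kinase of dividing cells, lost its call without hippocampal library 2 or 3 or hypothalamic library 1 or 2, up to an adjusted p of 0.106 without hippocampal library 2, and with the mouse number as a block (0.0532, and 0.0224 to 0.106 over the alternatives).

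Of 13 genes shared by most neurons, 1 was higher in hippocampus and 4 were higher in hypothalamus (38.5% called, against 18.2% of all genes), with a median log2 fold change of -0.14. Rbfox3, the nuclear protein NeuN, was at 87.4, 119 and 129 FPKM in hippocampus and 47.97, 49.2 and 48.6 FPKM in hypothalamus (log2 fold change 1.23 ± 0.13, edgeR adjusted p = 1.4e-04). Nefh, the heavy neurofilament of large axons, was at 71.2, 73.9 and 69.6 FPKM in hypothalamus and 33.2, 24.9 and 27.1 FPKM in hippocampus (log2 fold change -1.25 ± 0.10, edgeR adjusted p = 2.2e-05). Snap25, of the vesicle fusion machinery, was not called at 881, 1056 and 1218 FPKM in hippocampus and 935, 935 and 838 FPKM in hypothalamus. Their summed level was 3042, 3258 and 3603 FPKM in hippocampus and 3383, 3398 and 3364 FPKM in hypothalamus, and these sums overlapped.

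Among glia, astrocyte genes went in both directions, with 3 of 18 higher in hippocampus, 5 in hypothalamus (all genes 9.97% and 8.21%) and a median log2 fold change of -0.19. Agt, angiotensinogen, was at 171, 194 and 146 FPKM in hypothalamus and 52.1, 42.7 and 26.97 FPKM in hippocampus (log2 fold change -1.98 ± 0.21, edgeR adjusted p = 1.1e-04). Slc1a2, the main glutamate transporter, was at 212, 232 and 232 FPKM in hippocampus and 127, 122 and 136 FPKM in hypothalamus (log2 fold change 0.90 ± 0.07, edgeR adjusted p = 2.7e-05). Oligodendrocyte genes were called in 1 case of 19, Enpp2, and had a median of -0.15. Enpp2, the ectoenzyme autotaxin, is also strong in choroid plexus, and it was at 433, 442 and 346 FPKM in hippocampus and 191, 96.03 and 201 FPKM in hypothalamus (log2 fold change 1.41 ± 0.24, edgeR adjusted p = 0.00185). Without TMM, and with 0.1 added to FPKM, 2 oligodendrocyte genes were called. Mbp, myelin basic protein, was not called at 2546, 2256 and 2146 FPKM in hippocampus and 2587, 2564 and 2403 FPKM in hypothalamus. Of 12 genes of oligodendrocyte precursors, 1, C1ql1, was called, higher in hypothalamus, with a median of -0.04; without hippocampal library 3, 0 were called.

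Microglial genes were all on the hippocampal side. The fold change was positive for each of 15, 10 were called higher in hippocampus (all genes 9.97%), and the median log2 fold change was 0.63. Without TMM 6 were called, and 4 in limma on log2(FPKM + 1). Their summed level was 393, 468 and 456 FPKM in hippocampus and 314, 312 and 304 FPKM in hypothalamus, and the lowest hippocampal library was above the highest hypothalamic one. P2ry12, a receptor of resting microglia, was at 16.5, 18.7 and 19.2 FPKM in hippocampus and 10.2, 9.62 and 10.4 FPKM in hypothalamus (log2 fold change 0.93 ± 0.09, edgeR adjusted p = 5.0e-05). Genes of endothelium and pericytes gave 0 calls of 18 in edgeR, with 1 at an adjusted p under 0.05 at any fold change, and a median of 0.10. Cldn5, a tight junction protein of brain capillaries, averaged 20.99 FPKM in hippocampus and 17.6 FPKM in hypothalamus.

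Lists for cells that line the ventricles were mixed. Of 12 tanycyte genes, 5 were higher in hippocampus and 3 in hypothalamus (all genes 9.97% and 8.21%), with a median log2 fold change of 0.17. Gpr50, an orphan receptor of tanycytes, was at 2.09, 1.73 and 2.51 FPKM in hypothalamus and 0.14, 0.11 and 0.07 FPKM in hippocampus (log2 fold change -4.19 ± 0.28, edgeR adjusted p = 7.6e-06). Crym, a thyroid hormone binding protein also made by telencephalic neurons, was the other way at 88.8, 68.7 and 60.3 FPKM in hippocampus and 2.41, 3.68 and 6.99 FPKM in hypothalamus (log2 fold change 4.15 ± 0.31, edgeR adjusted p = 1.5e-05). Ciliated ependyma gave 2 calls higher in hypothalamus of 12 (16.7%, against 18.2% of all genes) and a median of -0.28. The ependymal count was 5 without hippocampal library 1, 4 in limma on FPKM with 1 or 0.1 added, and 1 in the fit of all 12 libraries, without hippocampal library 2 or 3 or without hypothalamic library 1 or 2. Rarres2, the chemokine precursor chemerin, was not called in edgeR, but was without hippocampal library 1 (adjusted p = 0.00101) and with the mouse number as a block (0.0103, and 0.00101 to 0.212 over the alternatives). Ependymal genes summed to 123, 115 and 107 FPKM in hippocampus and 139, 137 and 131 FPKM in hypothalamus.

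Genes of tissues that border the regions were counted in full, since a dissection can include them. Choroid plexus genes were higher in hippocampus in 12 of 14 tested and in hypothalamus in 0 (all genes 9.97% and 8.21%), with a median log2 fold change of 2.19. They summed to 1984, 2218 and 1446 FPKM in hippocampus and 543, 43.02 and 465 FPKM in hypothalamus, of which Ttr was the largest part, and hypothalamic library 2 was the lowest. Folr1, a folate receptor of that epithelium, was at 17.4, 15.6 and 10.9 FPKM in hippocampus and 4.14, 0.9 and 4.01 FPKM in hypothalamus (log2 fold change 2.36 ± 0.41, edgeR adjusted p = 0.00196). Its groups were apart. The part of choroid plexus in the result was not tested.

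Striatal genes were higher in hippocampus in 11 of 14 and in hypothalamus in 0 (all genes 9.97% and 8.21%), with a median log2 fold change of 2.05. Their summed level was 473, 794 and 1249 FPKM in hippocampus and 228, 250.3 and 302 FPKM in hypothalamus, with Penk the most abundant on average; hippocampal library 3 held more than hippocampal library 1 and all were above the hypothalamic libraries. Drd1 had a log2 fold change of 2.38 ± 0.47 (edgeR adjusted p = 0.00418). Drd2, the other main dopamine receptor, was not called at 10.6, 20.2 and 32.1 FPKM in hippocampus and 16.1, 14.1 and 15.9 FPKM in hypothalamus. Without hippocampal library 1 Drd2 was called higher in hippocampus (log2 fold change 0.86, edgeR adjusted p = 0.00286, and 0.00286 to 0.789 over the alternatives). Cortical genes gave 7 calls in hippocampus and 1 in hypothalamus of 14, with a median of 0.50. They summed to 234, 289.6 and 329 FPKM in hippocampus and 137, 147 and 134 FPKM in hypothalamus, with Crym the most abundant on average. Neither list had a member at 0 in all libraries of a region, and the part of striatal and cortical tissue was not tested.

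Thalamic genes were all higher in hypothalamus, 14 of 14 tested (all genes 8.21%), with a median log2 fold change of -1.28. They summed to 317, 175 and 194 FPKM in hippocampus and 705, 725 and 677 FPKM in hypothalamus, with Calb2 the most abundant on average, and hippocampal library 1 was the highest of its region. At a fold change over 2, 9 were called. Ramp3, Prkcd and Plekhg1 lost their calls in the fit of all 12 libraries (edgeR adjusted p = 0.151, 0.252 and 0.127). Ramp3 also lost its call without hippocampal library 2 or 3 or hypothalamic library 1 or 2, and Prkcd without hypothalamic library 2 or 3. Tcf7l2, a Wnt effector of thalamic neurons, was at 57.7, 63.3 and 46.95 FPKM in hypothalamus and 12.8, 7.61 and 9.01 FPKM in hippocampus (log2 fold change -2.40 ± 0.19, edgeR adjusted p = 1.9e-05). Its groups were apart. Genes of septum and amygdala went in both directions, with 3 of 10 higher in hippocampus, 5 in hypothalamus and a median of -0.72. Their sums, 125, 105 and 101 FPKM in hippocampus and 122, 132 and 153 FPKM in hypothalamus, overlapped. The part of these tissues in the result was not tested.

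Hormone genes of the anterior pituitary were nearly absent. Of 13 listed, 4 were tested, with 1 higher in hippocampus, 1 in hypothalamus (all genes 9.97% and 8.21%) and a median log2 fold change of 0.02. The called genes were Chgb and Pomc, which neurons also make. Gh, growth hormone, was at 0, 0.05 and 0.05 FPKM in hypothalamus and 0.1, 0 and 0 FPKM in hippocampus, and Prl, prolactin, at 0.09, 0 and 0 FPKM in hypothalamus and 0, 0 and 0 FPKM in hippocampus. Pou1f1, the factor that drives both, was at 0 in every library. Between 4 and 5 pituitary genes were called in DESeq2, in edgeR on every gene with at least 1 read, in the fit of all 12 mRNA libraries, and without hippocampal library 1 or 3 or without hypothalamic library 2. The list summed to 192, 179 and 154 FPKM in hippocampus and 126, 121 and 128 FPKM in hypothalamus, nearly all of it Chgb, with 5 members at 0 in all hippocampal libraries, and its part in the result was not tested.

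Meningeal genes gave 1 call in hippocampus, Igf2, and 0 in hypothalamus of 13 (all genes 9.97% and 8.21%), with a median log2 fold change of -0.17 and sums of 169, 136 and 89.7 FPKM in hippocampus and 136, 139 and 86.1 FPKM in hypothalamus. Without hippocampal library 1, 2 were called, Col1a2 (log2 fold change -0.71) and Col3a1 (-1.01), both higher in hypothalamus. Without hippocampal library 2, or without hypothalamic library 3, 0 were called. The count was also 0 without TMM, in the fit of all 12 libraries and in each limma fit on FPKM. The adjusted p of Igf2 ranged from 6.3e-04 to 0.155 over the alternatives, with 0.0687 without hippocampal library 2 and 0.0684 without hypothalamic library 3, and its log2 fold change fell under the 1.5-fold threshold without hippocampal library 1 (0.50), without hypothalamic library 3 (0.50) and without TMM (0.58). With the mouse number as a block 2 were called, the other being Slc47a1 (adjusted p = 0.0412, and 0.0412 to 0.676 over the alternatives). Genes of blood gave 0 calls of 5 in edgeR, and a median of 0.45. Their sums were 658, 1421 and 776 FPKM in hippocampus and 686, 1054 and 506 FPKM in hypothalamus, with Hbb-bs the most abundant on average and library 2 the highest in each region. Hemoglobin genes have near-identical copies, so their single values are uncertain. The part of meninges and blood in the result was not tested.

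**Figure D5:**
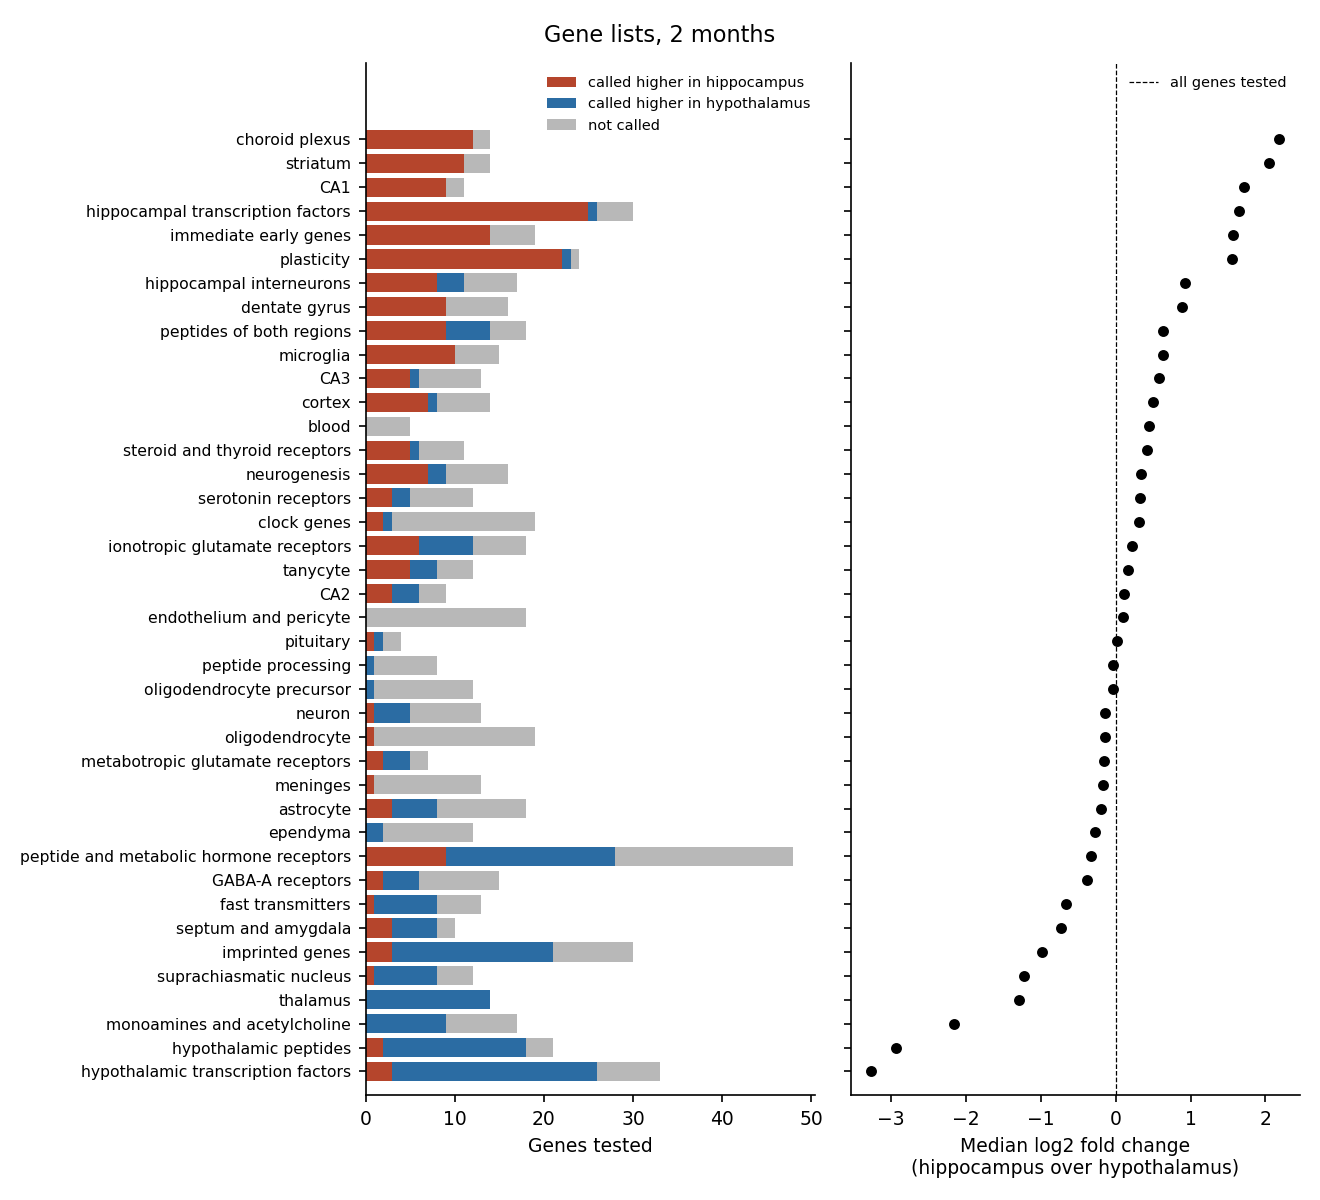
Left, number of genes tested in each list, divided into called higher in hippocampus, called higher in hypothalamus and not called; right, the median log2 fold change of each list (hippocampus over hypothalamus), with a broken line for all genes tested. Medians run from -3.27 for hypothalamic transcription factors to 2.19 for choroid plexus. With genes at 0 in every library of a region placed at their bounds, hypothalamic peptides are lowest at -2.58.

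Lists of the Gene Ontology were described in the same way. Of genes for neuropeptide hormone activity, 13 of 22 were higher in hypothalamus and 5 in hippocampus (all genes 8.21% in hypothalamus and 9.97% in hippocampus), with a median log2 fold change of -1.46. Neuropeptide receptor activity gave 6 and 0 of 9 in the same order (median -1.21), and the neuropeptide signaling pathway 33 and 11 of 61 (median -1.13). Hormone activity gave 9 and 7 of 34 (median 0.15), and feeding behavior 13 and 6 of 29 (median -0.20). When every library had to hold 10 counts, 11 genes of neuropeptide hormone activity and 29 of the neuropeptide signaling pathway were called.

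Among synaptic terms the calls in hippocampus outnumbered those in hypothalamus for some complexes and not for others. In the postsynaptic density 65 of 185 were higher in hippocampus and 16 in hypothalamus (all genes 9.97% and 8.21%), with a median log2 fold change of 0.25. Long-term synaptic potentiation gave 12 and 2 of 36 in the same order (median 0.18). Voltage-gated potassium channel complexes gave 20 and 9 of 64 (median 0.21). Voltage-gated calcium channel complexes gave 5 and 5 of 20 (median 0.20), with 6 called in limma on log2(FPKM + 1). GABA-A receptor complexes gave 2 and 2 of 12 (median -0.14), and ionotropic glutamate receptor complexes 2 and 3 of 5 (median -0.64). Steroid hormone receptor activity gave 12 and 6 of 41 (median 0.05).

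Complex I of the mitochondrial respiratory chain gave 0 calls of 39 in edgeR, with 6 at an adjusted p under 0.05 at any fold change (median log2 fold change -0.02). Structural ribosomal proteins gave 1 of 120 (median 0.04), with 2 without hypothalamic library 2, and 0 without hippocampal library 2 or hypothalamic library 3, without TMM and in each limma fit on FPKM. The myelin sheath gave 6 in hippocampus and 4 in hypothalamus of 142 (median -0.10), and 6 in all without hippocampal library 2 or hypothalamic library 3. Circadian rhythm gave 10 and 11 of 77 (27.3% called, against 18.2% of all genes), with a median of -0.00132, and 13 in all in limma on log2(FPKM + 1) with no filter. Immune response gave 18 and 7 of 104 (24.0% called, median 0.14), and 15 in all in limma on log2(FPKM + 1). Hippocampus development gave 8 and 6 of 66 (21.2% called), with a median of -0.00122. Hypothalamus development gave 0 of 8 (median 0.07), with 2 at an adjusted p under 0.05 at any fold change and 1 in DESeq2 or without hippocampal library 1, 2 or 3 or hypothalamic library 2. No gene matched the term for collagen-containing extracellular matrix.

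The same contrast at 15 months, in other mice, served to describe how far the regional differences recur. There 2605 of 14956 genes (17.4%) were called. Of the 2720 genes called at 2 months, 2674 could be tested at 15 months, and 2652 of these (99.2%) had the same direction. Of them 2079 were also called there, 77.7% of those tested. Slc6a4 did not pass the count filter of the fit at 15 months and is not in these counts. At 15 months the log2 fold change was -6.27 for Oxt, -7.32 for Pmch, -8.46 for Hcrt, 4.55 for Neurod6 and 3.53 for Slc17a7. Hypothalamic peptides had a median log2 fold change of -3.25 at 15 months, and plasticity genes 1.55. Pou4f1, Barhl1 and Mab21l2, a contrast chosen after their values were seen, were closer between regions at 15 months, with log2 fold changes of -2.91, -2.73 and -2.33, and the edgeR test of that difference gave adjusted p of 0.961, 0.999 and 0.999. Barhl1 and Mab21l2 were not called at 15 months (edgeR adjusted p = 0.0584 and 0.0517). The difference between the regional contrasts at the 2 ages was tested for 15237 genes over 12 libraries. In edgeR 0 genes had an adjusted p under 0.05, the lowest being 0.437, and 653 had an unadjusted p under 0.05, fewer than the 0.05 of all tests that would fall there with no difference. DESeq2 gave 3 genes, edgeR with DESeq2 size factors 0, and edgeR with the mouse number as a block 0.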

How the data were processed

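Samples were grouped by the labels of tissue, age and library type. The deposited expected counts, which the authors obtained with RSEM, were rounded and fitted in edgeR 4.0.16 by quasi-likelihood after filterByExpr and TMM, with Benjamini-Hochberg adjustment. The authors' FPKM values served for levels. The labels name HISAT, StringTie, Bowtie2 and RSEM on mm10; their versions, the strandness of the libraries and the borders of dissection are not given in the sources used here. The other fits used limma 3.58.1 and DESeq2 1.42.0 in R 4.3.3, with Python 3.11.15, numpy 2.4.6, pandas 2.3.3, scipy 1.17.1 and matplotlib 3.10.9, and the script was tested on simulated data.

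Called genes passed both an adjusted p under 0.05 and 1.5-fold in either direction. Genes were named by rule: in each direction the 10 largest changes among called genes whose counts, scaled to library size, did not overlap and whose mean expected count was at least 200 in the higher region, the 5 highest mean FPKM among genes called at over 4-fold, and list members in the paragraph on their list; not every gene so selected is described. The 41 written lists and 20 Gene Ontology lists, and the members named from them, were chosen with earlier results of these data known. For genes with 0 counts in a region, 3 counts per library served as a floor.

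Titles give the same mouse numbers in both regions. Across 13289 genes with a mean count of at least 50, deviations from the region mean correlated at 0.139, 0.181 and 0.195 for same-numbered libraries, and at -0.27 to 0.146 for the others, so a fit with the number as a block was added beside the unpaired fit. An exact permutation test of 3 against 3 libraries cannot go below 0.10. Sequencing of small RNA, and changes with age within a region, were not analysed here.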

Additional observations from a re-analysis of the deposited data

How the results depend on the processing

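Alternatives changed the scaling, filter, tool, unit, block, fold threshold or libraries; DESeq2 brings its own scaling and filter, and the limma fits on FPKM change the unit, scaling and filter with the tool. The edgeR count of 2720 called genes stayed within 1.5 times its value with DESeq2 size factors (2718), without TMM (2786), in DESeq2 (2685, sharing 2588), with every gene that had at least 1 read (2837), under a minimum of 10 counts per library (2439) and in a fit of all 12 libraries (2794). At any fold change 5658 genes were called, 2897 higher in hippocampus and 2761 in hypothalamus, and at a fold change over 2, 1455, 793 and 662; both follow from the threshold itself. In limma on log2(FPKM + 1) 875 genes were higher in hippocampus and 1000 in hypothalamus, and 865 and 996 with no filter, so that 46.7% and 46.5% of calls were higher in hippocampus, against 54.9%; the cause was not tested.

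Leaving out each library in turn gave 2411 to 2988 called genes, 1328 to 1586 higher in hippocampus and 1080 to 1402 in hypothalamus. Of the 2720 genes, 2039 (75.0%) were called in all 6 of these fits, and none changed direction. With hippocampal library 3 and hypothalamic library 2 left out together, chosen after seeing the data, 2380 were called, 1272 and 1108.

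With the mouse number as a block, for the pairing, 2695 genes were called (1461 and 1234), of which 2636 were called without it. Among list genes the block removed the calls of 2, Ttr and Cdk1, and added 9, and it changed no other of their calls.

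Of 335 called genes in the lists or named, 264 were called in every alternative fit that tested them, 71 lost the call in at least 1 and 0 reversed, while 44 genes gained a call. Genes that a filter took out of a fit, and the changes of fold threshold, do not enter these counts. At 15 months 1403 genes called at a fold change over 2 had the same direction, and 2665 of those called in DESeq2. The difference between ages gave 3 genes in DESeq2 and 0 in edgeR; the cause was not tested.

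Depth limits genes near 0 counts. Requiring 10 counts in every library takes out of the test any gene under 10 counts in a single library. Among these were Oxt, at 9 counts in hippocampal library 3, and Hcrt, at 5 counts there. Bounds apply only to the 7 tested genes at 0 in every library of a region. With 3 libraries per region, and pieces of tissue that differ in neighbouring structures, the counts describe these dissections. Levels of mRNA say nothing of peptide or protein.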

Other observations

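Of the 22 genes called at 2 months with the opposite direction at 15 months, 19 were higher in hippocampus at 2 months and 0 were called at 15 months. Chosen after values were seen, Pclaf, a factor of DNA replication, had log2 fold changes of 1.15 at 2 months and -0.41 at 15 months, and Uhrf1, which maintains DNA methylation in dividing cells, 0.70 and -0.46. Ptprc, the leukocyte antigen CD45, had 0.61 and -0.05. At 15 months the edgeR adjusted p was 0.482, 0.280 and 0.808 in this order, and for the difference between ages 0.999, 0.961 and 0.961.

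The 3 genes of the DESeq2 test between ages were also chosen after values were seen. Hs3st3a1, a heparan sulfate sulfotransferase, was at 0.27, 0.41 and 0.50 FPKM in hippocampus and 1.02, 1.07 and 0.81 FPKM in hypothalamus at 2 months, and at 1.05, 1.02 and 1.10 FPKM and 1.01, 0.89 and 0.85 FPKM at 15 months (DESeq2 adjusted p = 0.0132, edgeR 0.684). Mpeg1, a pore-forming protein of macrophages, was at 5.90, 6.68 and 6.97 FPKM in hippocampus and 4.22, 4.15 and 4.62 FPKM in hypothalamus at 2 months, and at 8.08, 7.52 and 8.23 FPKM and 8.58, 8.36 and 8.17 FPKM at 15 months (DESeq2 adjusted p = 0.00171, edgeR 0.437). Stxbp6, a regulator of vesicle fusion, was at 12.4, 12.5 and 12.4 FPKM in hippocampus and 19.06, 17.96 and 17.73 FPKM in hypothalamus at 2 months, and at 18.3, 17.3 and 18.3 FPKM and 20.02, 20.06 and 20.91 FPKM at 15 months (DESeq2 adjusted p = 0.0136, edgeR 0.684).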
